A study of Rattus norvegicus with 9 samples.

Results

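Complex I, the NADH dehydrogenase of the mitochondrial inner membrane, was followed through the nuclear genes that encode its subunits. The genes were taken from a list of 36 mouse Ensembl identifiers given with their symbols, and 35 of them stood among the 17862 features of the files; Ndufs3, a core subunit, was not analysed here. Of these 35 genes, 6 encode core subunits, 9 accessory subunits of the matrix arm and 20 accessory subunits of the membrane arm. RNA depleted of ribosomal RNA was sequenced from kidney tissue in 3 groups of 3 libraries at 6 weeks of age. The groups were normal animals (WT), animals with hypertension alone (Model), and animals with hypertension that received Qingda granule (QDG), a herbal preparation of Chinese medicine. The sources used here do not give the strain, the way hypertension arose, the granule dose, or whether a group's libraries come from different animals. So p-values take account of nothing but the spread among these libraries, which may be technical. The study's title names mitochondrial protection through ERK and RSK1 as its question, and the subunits of the largest respiratory complex are one readout of mitochondrial gene expression.

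Complex I takes electrons from NADH, passes them along a flavin and a chain of iron-sulfur clusters to ubiquinone, and pumps protons out of the matrix. Its matrix arm carries the NADH and ubiquinone sites, its membrane arm pumps protons, and the hydrophobic core of the membrane arm is encoded by mitochondrial DNA. The kidney's proximal tubule and thick ascending limb are rich in mitochondria because sodium reabsorption there is costly in ATP. NRF1, the ETS factor GABP, YY1, the estrogen-related receptors and Sp1 are known regulators of nuclear genes for respiratory subunits.

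The promoters of these genes are shown first, for a short word that several of them share near the start of transcription. RefSeq windows of the rat assembly GRCr8, from 250 bases before to 50 bases after the start, were matched by symbol for 33 of the 36 listed genes. The labels give rat as the organism while the files use mouse identifiers, so these windows need not be from the species sequenced. The YY1 word AAGATGGCG stood in 7 of the 33 windows (21.2%) and, on either strand, in 580 of all 33469 windows (1.73%). In all 7 genes it lay on the gene's own strand within the 50 bases after the start, where 0.792% of all windows hold it. This start is that of the window, and the listed extents of Ndufs7 and Ndufa9 reach upstream of it, to chr7:10110862 and chr4:161374188. It contains ATG, and whether that is the first codon was not examined. Windows of 30 bases around the word, in capitals, are given 5′ to 3′ with the distance of its first base from the start for 6 of the 7 genes (the other is Ndufa2).
Ndufs6, chr1:31797413-31797442 (GRCr8, plus strand), base 24: ggtcgtcggcAAGATGGCGgcggcgctgac
Ndufb8, chr1:253362896-253362925 (GRCr8, minus strand), base 22: ggagaaggtgAAGATGGCGgcgtcccgggc
Ndufs4, chr2:47794891-47794920 (GRCr8, minus strand), base 5: tgcccacaggAAGATGGCGgcggtctcaat
Ndufa9, chr4:161374141-161374170 (GRCr8, minus strand), base 11: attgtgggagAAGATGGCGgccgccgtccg
Ndufs7, chr7:10110475-10110504 (GRCr8, minus strand), base 5: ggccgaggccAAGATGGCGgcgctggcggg
Ndufa6, chr7:115750283-115750312 (GRCr8, minus strand), base 16: cttccttagcAAGATGGCGgccgcggccag

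The other words were searched on both strands as well. The NRF1 word GCGCATGC stood in 2 windows (6.06%, against 2.47% of all windows), those of Ndufa6 and Ndufa11. Its inner part GCATGC stood in 3 (9.09%, against 7.16%). The ETS word CCGGAAGT stood in 3 (9.09%, against 3.81%), the estrogen-related receptor word TNAAGGTCA in 1 (Ndufb4, against 1.20% of all windows) and the Sp1 box GGGCGG in 15 (45.5%, against 33.1%). A match describes letters only. The Ndufa11 window carries overlapping NRF1 words on both strands, 1 of which is shown in capitals.
Ndufa11, chr9:1637507-1637536 (GRCr8, plus strand), base -97: cctgcgctgtGCGCATGCgcatgcgcacag

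Values are FPKM, reads or fragments scaled to feature length and library total. This unit was inferred from the values. Groups are given as mean ± SD (n = 3). The values move in steps that imply library totals of 26.2 to 31.4 megareads and make each read on a feature of 1000 bases worth 0.0318 to 0.0382 FPKM, according to the library. The listed features held 25.5 of 31.4 megareads in WT 3, the lowest share, and 26.1 of 26.8 in Model 3, the highest. The part of these shares in the differences was not tested. Of the 35 subunits, 34 had at least 1498 recovered reads in every library, and counting error was therefore small beside the spread between libraries. Ndufb2 was the exception, with 253 reads in its poorest library. Values of genes that share reads with near-identical copies or overlapping genes are uncertain, since the sources used here do not give how reads were assigned. In bulk tissue, fewer mitochondria-rich cells and less RNA per cell cannot be told apart, and the tissue was not checked here against cell type markers because no file at hand pairs identifiers and symbols.

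Complex I subunits were abundant. Their mean over the 9 libraries had a median of 133 FPKM, against 5.81 FPKM for all 12187 tested features (those with a mean of at least 1 FPKM), and 29 of the 35 stood at 50 FPKM or more. Ndufa1, a short membrane-arm subunit needed for assembly, was the most abundant at 344 FPKM, followed by Ndufa2 at 329 FPKM in the matrix arm and Ndufb11 at 302 FPKM in the membrane arm. These neighbours did not differ beyond their spread in WT, where Ndufa1 stood at 226 ± 80.9 FPKM, Ndufa2 at 244 ± 97.9 and Ndufb11 at 253 ± 38.1. At the low end stood Ndufs1, the large iron-sulfur subunit, at 29.2 FPKM, and Ndufab1, the mitochondrial acyl carrier protein, at 23.4 FPKM. Ndufb2 lay far below all others, at 2.10, 1.71 and 2.30 FPKM in the WT libraries, 2.30, 2.87 and 2.79 FPKM in those of Model, and 2.08, 1.98 and 2.08 FPKM in those of QDG. Its feature is 5628 bases long, and whether read assignment or an overlapping gene enters this low level was not tested. The order of levels was nearly the same in all groups, with a Spearman's rho across the 35 genes of 0.96 between the means of WT and Model, 0.98 between Model and QDG, and 0.97 between WT and QDG (genes are not independent replicates).

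**Figure D1:**
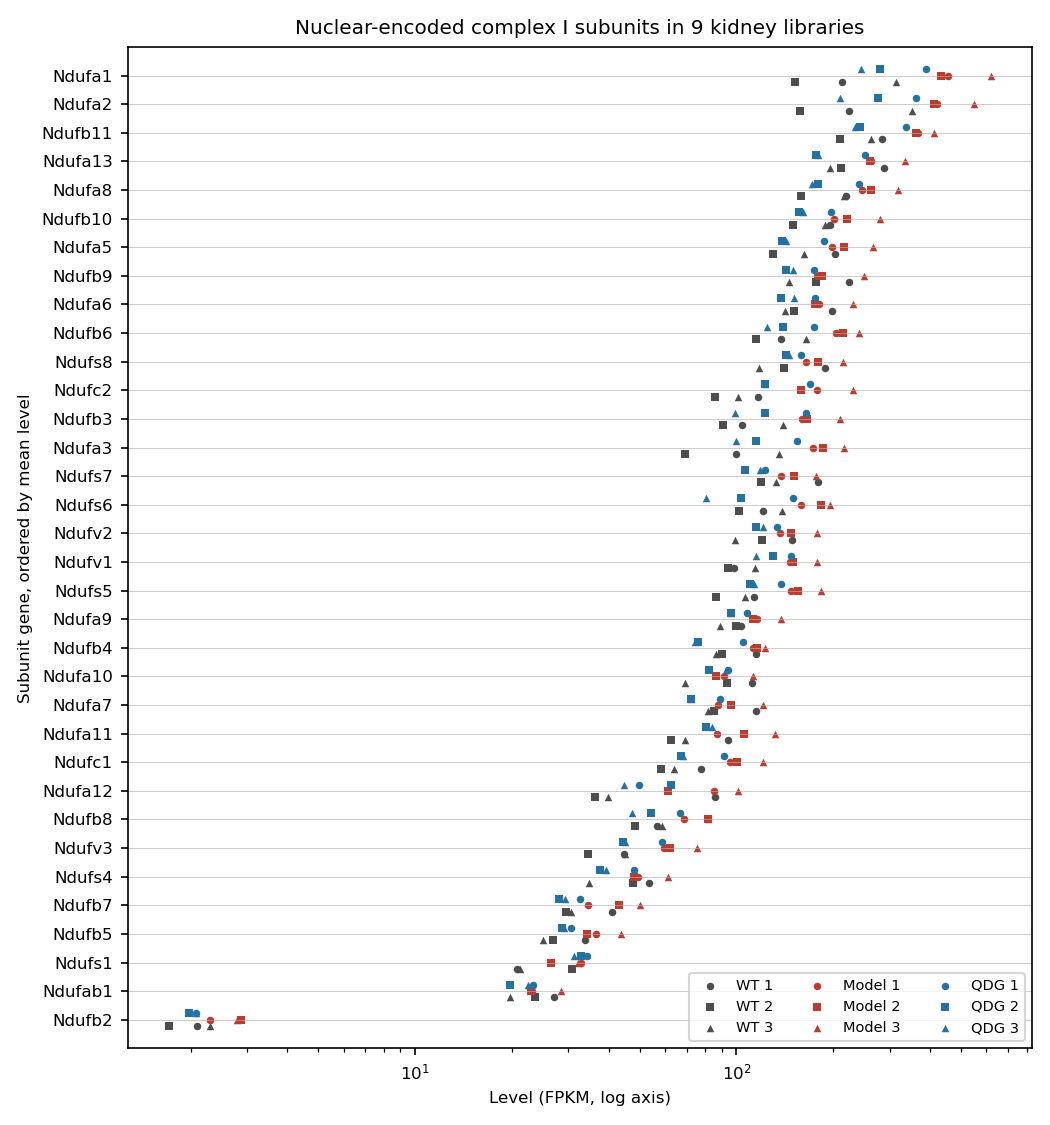
FPKM (log axis) of 34 of the 35 nuclear-encoded complex I subunits in 9 kidney libraries, 1 point per library, with colour for the group and shape for the replicate. The Model 3 library lies farthest right for most genes, and Ndufb2 lies apart from all others at 1.71 to 2.87 FPKM.

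The question of Model against WT is what differs in the hypertensive kidney. All 35 subunits had a higher estimate in Model, where 53.0% of all tested features did. Of the 35, 9 rose past the threshold (limma on log2(FPKM + 1), adjusted p under 0.05 over all tested features). This is 25.7% of the subunits, where 6.01% of all tested features were called higher, and 0 subunits were called lower, where 1.9% of all features were. At an unadjusted p under 0.05, 22 were higher, where 17.8% of all features (2168 of 12187) were. Without Model 3 the count was 14 subunits, where 1641 of the 12187 features were higher. All 3 Model libraries lay above all 3 WT libraries for 19 of the 35, where 17.3% of all features did so. The median difference of the subunits was 0.47 on the log2 scale, from 0.08 (Ndufab1) to 1.19 (Ndufa1), against 0.02 over all tested features.

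Among the core subunits, which carry the flavin, the iron-sulfur clusters and the ubiquinone site, 2 of 6 rose. Ndufv1 (ENSMUSG00000037916), which binds NADH and the flavin, stood at 98.3, 93.8 and 114 FPKM in WT and 146, 150 and 178 FPKM in Model. The groups did not overlap (log2 difference 0.62, SE 0.14, limma adjusted p = 0.0293).

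There were 4 core subunits that did not pass. Ndufv2, which holds an iron-sulfur cluster beside Ndufv1, stood at 149, 120 and 98.7 FPKM in WT and 137, 148 and 178 FPKM in Model, where WT 1 lay among the Model libraries. Ndufs8, which carries a pair of clusters on the way to ubiquinone, stood at 189, 141 and 118 FPKM in WT and 165, 180 and 214 FPKM in Model. Its WT 1 value lay above those of Model 1 and Model 2. Ndufs7, which holds the last cluster before ubiquinone, stood at 179, 119 and 133 FPKM in WT and 137, 151 and 177 FPKM in Model, with WT 1 above every Model library. Ndufs1 (ENSMUSG00000025968), which carries several of the clusters, stood at 20.7, 30.8 and 21.2 FPKM in WT and 32.9, 26.5 and 32.2 FPKM in Model, with WT 2 inside the range of Model. Their log2 differences were 0.34 for Ndufv2, Ndufs8 and Ndufs1 and 0.12 for Ndufs7, with SEs of 0.15 to 0.18 (limma adjusted p between 0.185 and 0.656).

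Of the 9 accessory subunits of the matrix arm, 1 rose. Ndufv3 (ENSMUSG00000024038), a small subunit attached to the NADH-binding module, stood at 44.8, 34.6 and 45.1 FPKM in WT and 59.4, 62.1 and 75.6 FPKM in Model, with no overlap (log2 difference 0.65, SE 0.16, limma adjusted p = 0.0370). Ndufa2, an accessory subunit with a thioredoxin-like fold, had a larger difference of 0.97 that did not pass (SE 0.29, limma adjusted p = 0.0625). It stood at 225, 158 and 351 FPKM in WT and 421, 411 and 549 FPKM in Model, so that the spread in WT was wide although the groups did not overlap. Ndufs6, a zinc-binding subunit, and Ndufa9, which stabilises the junction with the membrane arm, were also higher in all 3 Model libraries, with log2 differences of 0.57 and 0.32 that did not pass. Ndufa5, Ndufa6, Ndufa7, Ndufa12 and Ndufs4, which is a known site of mutation in Leigh syndrome, overlapped between the groups. Ndufa12, a subunit of the same arm, was the most uneven, at 85.7, 36.3 and 39.9 FPKM in WT and 85.4, 61.4 and 101 FPKM in Model, with WT 1 at the level of Model 1. The smallest difference of the matrix arm was 0.11, in Ndufa7, where WT 1 stood at 115 FPKM and only Model 3 (121 FPKM) above it.

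Of the 20 accessory subunits of the membrane arm, 6 rose, and 13 were higher in all 3 Model libraries than in any WT library. Ndufa1 (ENSMUSG00000016427) stood at 214, 152 and 313 FPKM in WT and 455, 434 and 619 FPKM in Model (log2 difference 1.19, SE 0.27, limma adjusted p = 0.0298). It was the only subunit whose mean more than doubled, with a ratio of means of 2.22. Ndufc2 (ENSMUSG00000030647), which contacts the mitochondrially encoded subunit ND2, stood at 117, 86.0 and 100.8 FPKM in WT and 178, 159 and 230.2 FPKM in Model. It had the lowest adjusted p of the set (log2 difference 0.89, SE 0.19, limma adjusted p = 0.0250). Ndufa3 (ENSMUSG00000035674), near the heel of the complex, stood at 99.9, 69.2 and 135 FPKM in WT and 173, 186 and 216 FPKM in Model (log2 difference 0.96, SE 0.24, limma adjusted p = 0.0399). All 3 genes were clear of overlap, and in Ndufa1 and Ndufa3 it was WT 3 that came closest to Model.

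The other 3 that rose in the membrane arm had smaller and more even differences. Ndufs5 (ENSMUSG00000028648), on the intermembrane face, stood at 114, 86.2 and 106 FPKM in WT and 147, 155 and 184 FPKM in Model (log2 difference 0.67, SE 0.15, limma adjusted p = 0.0293). Ndufb6 (ENSMUSG00000071014), in the distal membrane arm, stood at 137, 115 and 164 FPKM in WT and 204, 215 and 241 FPKM in Model (log2 difference 0.67, SE 0.17, limma adjusted p = 0.0401). Ndufc1 (ENSMUSG00000037152), a partner of Ndufc2, stood at 77.6, 58.3 and 64.1 FPKM in WT and 95.2, 100.2 and 121 FPKM in Model (log2 difference 0.66, SE 0.16, limma adjusted p = 0.0399). None of these 3 overlapped between the groups. Ndufb11, whose loss in people causes an X-linked developmental disorder, stood at 285, 210.4 and 263 FPKM in WT and 368, 362 and 411 FPKM in Model. Its groups did not overlap, yet its difference of 0.60 did not pass (limma adjusted p = 0.0593). At the other end stood Ndufab1, at 27.0, 23.6 and 19.7 FPKM in WT and 23.2, 22.9 and 28.4 FPKM in Model. Ndufa10, a matrix-facing subunit, stood at 111, 93.8 and 69.2 FPKM in WT and 91.4, 86.5 and 113 FPKM in Model. Both groups overlapped for these 2 genes, with log2 differences of 0.08 and 0.10 (95% intervals of -0.22 to 0.39 and -0.29 to 0.49).

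**Figure D2:**
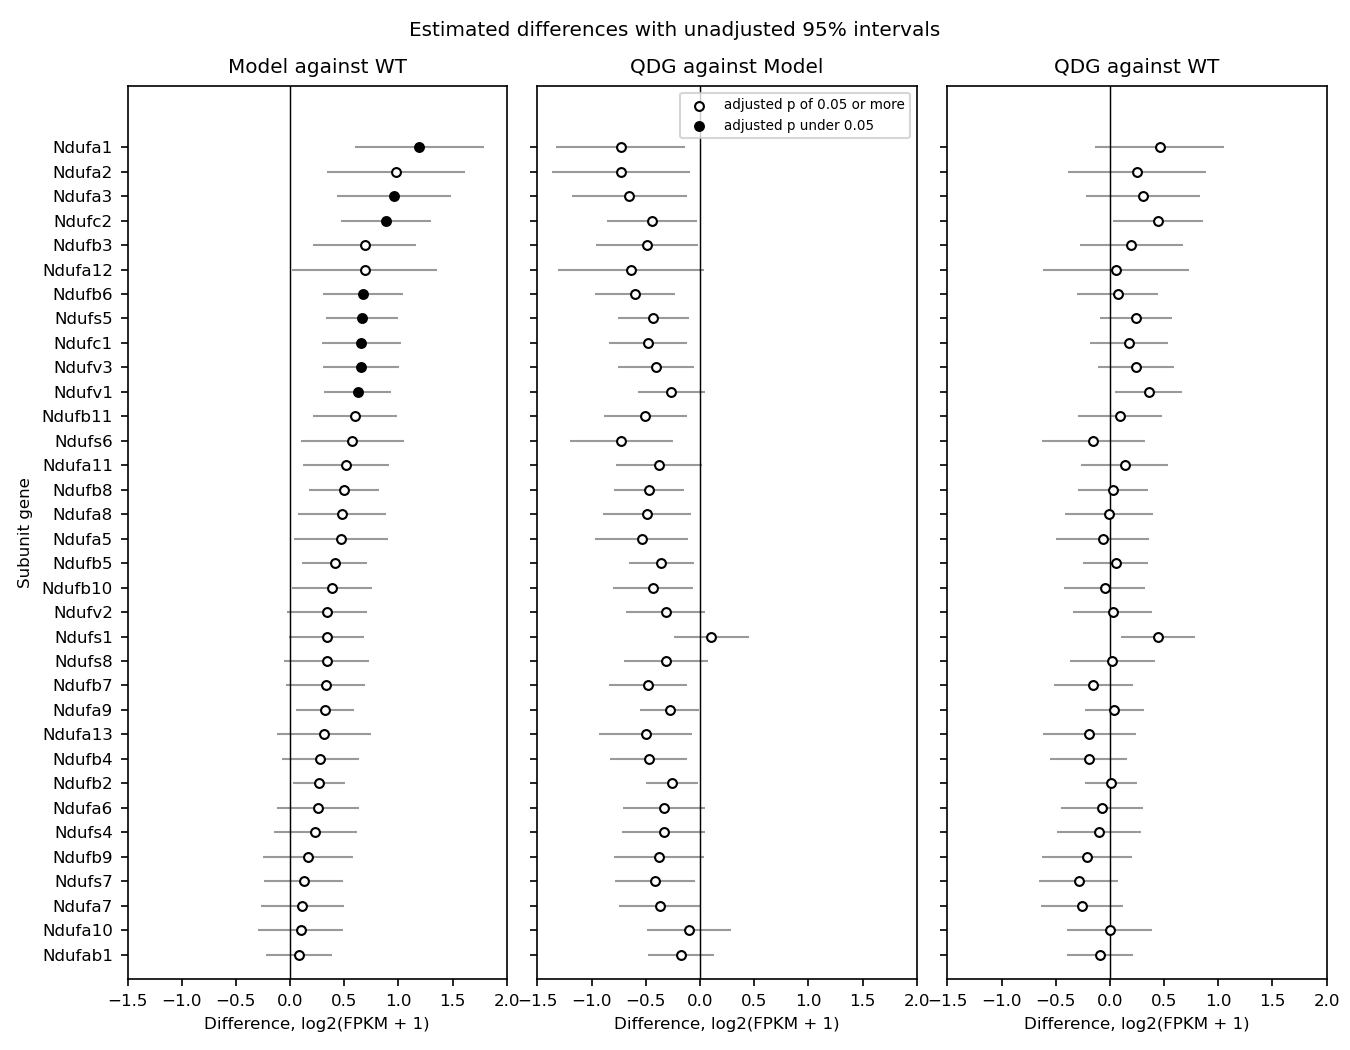
Difference in log2(FPKM + 1) of 34 of the 35 subunits (horizontal axis) with the unadjusted 95% interval from limma, in 3 comparisons, with genes in the order of their Model against WT difference. Filled points mark an adjusted p under 0.05, which 8 of the genes shown reached in Model against WT and 0 in the other comparisons.

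The 9 calls were not stable when single libraries were left out. With any of WT 2, Model 1 or Model 3 left out, 0 subunits were called. Calls fell over all 12187 tested features too, with 182, 234 and 144 called higher there, against 732 in the full fit. Leaving out QDG 2 gave 1 call (315 of all features), and WT 1 or QDG 3 gave 4 (324 and 429). Leaving out Model 2 gave 5 (778), QDG 1 gave 8 (495) and WT 3 gave 9 (1013). A fit to the WT and Model libraries alone called 0 (102 of all features). Over 20 alternatives Ndufc2 kept its call in 16, Ndufa1 and Ndufs5 in 14, Ndufv1 in 11, Ndufv3 in 10, Ndufc1 in 7, and Ndufa3 and Ndufb6 in 6, and no difference of these 9 changed direction.

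Short features moved more than long ones in these libraries, and complex I genes are mostly short. The steps of the values gave feature lengths of 419 (Ndufa1) to 8086 bases (Ndufs1) with a median of 1569. Across the 35 genes, Spearman's rho of length with the log2 difference of Model against WT was -0.62, and over all features it was -0.35 (genes share libraries and are not independent replicates). The 9 subunits under 1000 bases had a median difference of 0.67, against 0.21 for the 1180 other features under 1000 bases. The 13 subunits of 1000 to 2000 bases had a median of 0.34, against 0.20 for 1521 others. The 13 subunits of 2000 bases or more also had a median of 0.34, against -0.01 for 9448 others.

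Features of like length and level also leaned upward in Model. The 8012 other features inside the whole range of the subunits in length and mean FPKM had a median difference of 0.07, and 7.43% of them were called higher. A narrower class, chosen after seeing the data, took the 1009 other features between the 10th and 90th percentiles of the subunits in both. It had a median of 0.22, with 12.9% called higher and 77.3% with a higher estimate in Model. All 3 Model libraries lay above all 3 WT libraries for 36.8% of it. The same shares over all 35 subunits were 25.7%, 100% and 54.3%. The class spans 758 to 4806 bases and 33.4 to 233 FPKM, so some subunits lie outside it, Ndufa1, Ndufa2, Ndufb6 and Ndufc2 among them. Removing each library's trend with length left a median difference of 0.32 for the subunits, with 32 of 35 higher and 5 called. Removing the trend with length and level together left 0.26, with 31 of 35 higher and 3 called, and quantile normalization left 0.27, with 30 higher and 2 called. Over all 12187 tested features these fits called 467, 447 and 431 higher, in that order, against 732 in the main fit. The part of length and level in the difference was not tested beyond these values.

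**Figure D3:**
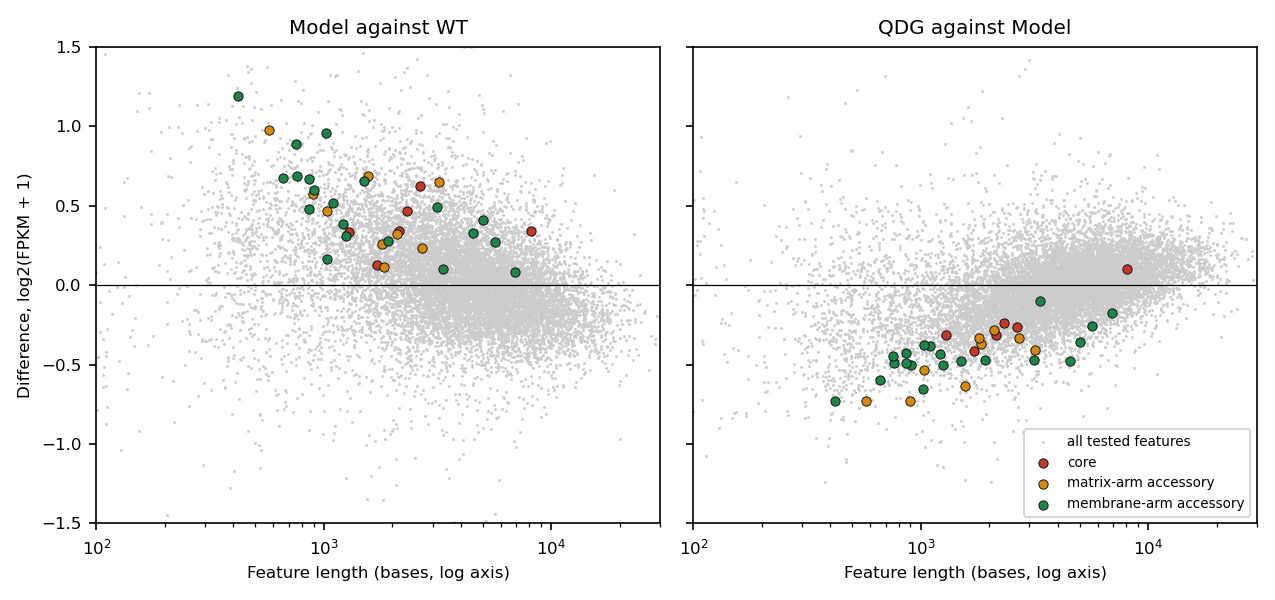
Difference in log2(FPKM + 1) against feature length in bases (log axis) for all tested features (grey) and the 35 subunits (coloured by class), in Model against WT and QDG against Model. Grey features beyond the axes are not shown. Ndufa1, at 419 bases the shortest subunit, differs most among the subunits in both panels, by 1.19 and -0.73.

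The median level of the subunits shifted from library to library. Each library's deviation was taken as the median over the 35 genes of log2(FPKM + 1) minus the mean of the 9 libraries. It was 0.00, -0.34 and -0.18 in WT, 0.17, 0.22 and 0.49 in Model, and 0.09, -0.19 and -0.24 in QDG, for replicates 1, 2 and 3. Model 3 stood highest and WT 2 lowest. Model 3 held the highest of the 9 values for 31 genes, and WT 2 the lowest for 17. Within groups, Model 3 held the highest Model value for 32 genes and QDG 1 the highest QDG value for 33. The genes were divided in WT, where WT 3 held the highest WT value for 10 and the lowest for 13. Spearman's rho of length with the deviation of each gene ran from -0.75 (Model 3) to 0.67 (WT 2). The median difference of Model against WT was 0.35 without Model 3 and 0.38 without WT 2. The 1009 features of like length and level deviated in the same direction in 8 of the 9 libraries and less far in 8 of the 9, at -0.01, -0.08 and -0.15 in WT, 0.11, 0.03 and 0.26 in Model, and 0.05, -0.08 and -0.09 in QDG. WT 1 was the exception in both. The summed level of the 35 genes was 4036 ± 536 FPKM for WT, 5845 ± 800.3 FPKM for Model and 4209 ± 658 FPKM for QDG. These sums made up 0.959% ± 0.144, 1.32% ± 0.0864 and 1.02% ± 0.153 of all FPKM.

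**Figure D4:**
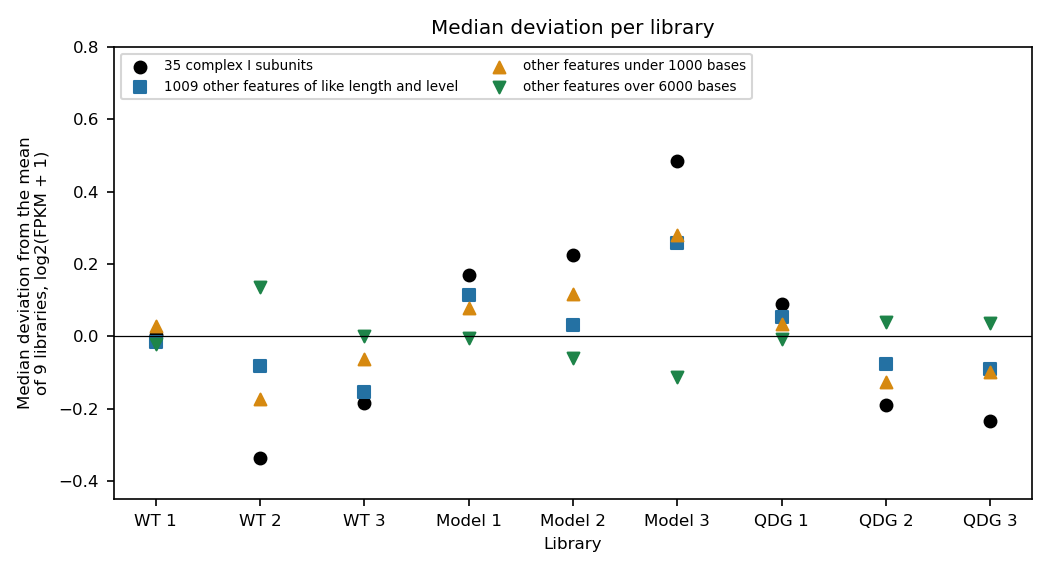
Median deviation of each library from the mean of the 9 libraries, in log2(FPKM + 1), for the 35 subunits, for 1009 other features of like length and level, and for other features under 1000 and over 6000 bases. The subunits lie between -0.34 (WT 2) and 0.49 (Model 3), and the features of like length and level between -0.15 and 0.26.

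QDG against Model asks how hypertensive kidneys differed with the granule. None of the 35 subunits passed the threshold (0 called with limma, lowest adjusted p = 0.289, where 0.0% of all tested features were called lower). A voom fit to the recovered reads called 0 subunits too, with either scaling, and 0 of all 12184 features. The estimate was lower in QDG for 34 of the 35, where 53.5% of all tested features were lower. The median log2 difference was -0.43, against -0.02 over all tested features. At an unadjusted p under 0.05, 22 were lower, where 9.64% of all features were. That count was 5 without Model 3, 5 without QDG 2 and 4 without QDG 3. Over all 12187 tested features it was 626, 581 and 557 in those fits, against 1175 in the full fit. All 3 QDG libraries lay below all 3 Model libraries for 24 of the 35, where 16.3% of all features did so. This comparison shares the Model libraries with the previous one, so a high value in them enters both with opposite sign.

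Ndufa1 had the largest estimate in this comparison. It stood at 388, 280.3 and 244 FPKM in QDG, below the 434 to 619 FPKM of Model (log2 difference -0.73, SE 0.27, limma adjusted p = 0.312). Ndufa2 stood at 362, 275 and 209 FPKM in QDG against 411 to 549 FPKM in Model (-0.73, SE 0.29, limma adjusted p = 0.318). Ndufs6 stood at 149, 103 and 80.1 FPKM in QDG against 158, 183 and 195 FPKM in Model (-0.73, SE 0.21, limma adjusted p = 0.291). In these 3 short genes QDG 1 lay nearest to Model and QDG 3 farthest from it. The lowest adjusted p belonged to Ndufb6, at 174, 139 and 125 FPKM in QDG against 204 to 241 FPKM in Model (-0.60, SE 0.17, limma adjusted p = 0.289).

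The median difference between QDG and Model was -0.29 for the core subunits, -0.41 for the matrix-arm accessory subunits and -0.47 for the membrane-arm accessory subunits. No test was made between these classes, which also differ in length. Ndufs7 stood at 123, 107 and 118 FPKM in QDG, all below Model, and Ndufv2 at 134, 115 and 121 FPKM, likewise all below. Ndufs8 stood at 159, 143 and 145 FPKM, again below every Model library. Ndufv1 stood at 148, 130.2 and 115 FPKM, with QDG 1 above Model 1. Ndufs1 was the only subunit with a higher estimate in QDG, at 34.2, 32.8 and 31.3 FPKM, a log2 difference of 0.10 (95% interval -0.24 to 0.45). It is also the longest of the 35 features. Ndufa10 had an estimate of similar size in the other direction, at 94.2, 82.3 and 92.8 FPKM in QDG and a log2 difference of -0.10 (95% interval -0.49 to 0.29).

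Length ran the opposite way here. Spearman's rho of length with the log2 difference was 0.73 across the 35 genes and 0.45 across all features. The subunits under 1000 bases had a median of -0.51, against -0.21 for the others of that length, and those of 2000 bases or more a median of -0.28, against 0.01. The narrower class of like length and level had a median of -0.18, with 79.7% of its features lower in QDG and 35.4% with no overlap below Model. All 35 subunits, some of them outside the bounds of this class, gave 97.1% and 68.6%. With the trend of length and level removed, the median of the subunits was -0.22, and 8 of them were lower at an unadjusted p under 0.05. In that fit 673 of the 12187 tested features were lower at this threshold.

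QDG against WT asks how kidneys under the granule compared with normal ones. No subunit was called (limma, lowest adjusted p = 0.146), where 1.63% of all tested features were called higher and 0.837% lower. Voom called 0 subunits under both scalings. Of all 12184 features it called 243 higher and 143 lower on total reads, and 285 and 157 with TMM. The estimate was higher in QDG for 21 subunits and lower for 14, where 49.9% of all tested features were higher. The median was 0.03, against 0.00 over all features. At an unadjusted p under 0.05, 3 were higher, where 11.8% of all features were. All 3 QDG libraries lay above all 3 WT libraries for 4 subunits, where 15.2% of all features did so, and for 0 subunits below, where 12.5% did.

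The 4 included Ndufs1, Ndufv1 and Ndufc2. Ndufs1 stood at 31.3 to 34.2 FPKM in QDG and 20.7 to 30.8 FPKM in WT (log2 difference 0.44, SE 0.15, limma adjusted p = 0.146). It was called only in the fit without WT 2, the library with its highest WT value. Ndufv1 differed by 0.36 (SE 0.14) and Ndufc2 by 0.44 (SE 0.19), with limma adjusted p of 0.181 and 0.210. The largest estimate was in Ndufa1, at 0.46 (SE 0.27, limma adjusted p = 0.353), where WT 3 at 313 FPKM lay inside the QDG range. The smallest were in Ndufa10 and Ndufa8, a membrane-arm subunit with twin cysteine motifs, at 0.00 and -0.01 (95% intervals of -0.39 to 0.39 and -0.42 to 0.39). Ndufa8 stood at 219, 159 and 217 FPKM in WT, 246, 262 and 319 FPKM in Model and 240, 179 and 172 FPKM in QDG. A p that misses the threshold does not show that QDG and WT were alike. The QDG mean lay between those of WT and Model for 18 of the 35, below WT for 16 and above Model for 1. These counts were not made over all tested features, so they have no share to stand beside.

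Differences were also set beside the promoter word. For the 7 genes with the YY1 word the median log2 difference was 0.32 in Model against WT and -0.41 in QDG against Model, against 0.47 and -0.43 for the 25 measured genes whose windows lack it. This is a description with no test.

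The subunits encoded by mitochondrial DNA form the proton-pumping core of the membrane arm. Their 7 Ensembl identifiers, paired with symbols by hand since neither the files nor the tables at hand pair them, all had a lower estimate in Model than in WT, where 47.0% of all tested features did. Their median log2 difference was -0.63, against 0.47 for the nuclear genes. Of the 7, 1 fell past the threshold, where 1.9% of all features were called lower. mt-Nd5 (ENSMUSG00000064367) stood at 8272, 6896 and 5404 FPKM in WT and 2842, 2601 and 2487 FPKM in Model (log2 difference -1.36, SE 0.22, limma adjusted p = 0.0121). In alternatives chosen after seeing the data, its call was kept in 19 of 20, with limma adjusted p from 0.00348 to 0.0538, and was lost without a filter on low values. In QDG it stood at 4062, 4476 and 6173 FPKM, above every Model library, a log2 difference from Model of 0.87 that did not pass (SE 0.22, limma adjusted p = 0.281). The other 6 had differences from -2.18 (mt-Nd4l) to -0.13 (mt-Nd3) in Model against WT, and in each of them the groups overlapped. The feature of mt-Nd4l is 297 bases long and its values were uneven (SE 0.79, limma adjusted p = 0.110). It stood at 1388, 184 and 714 FPKM in WT and 84.1, 307 and 73.8 FPKM in Model. In QDG against Model 6 of the 7 had a higher estimate, where 46.5% of all tested features did, with a median of 0.20, and 0 passed. In QDG against WT all 7 had a lower estimate, where 50.1% of all tested features did, with a median of -0.43, and 0 passed. mt-Nd6 lies on the other strand from the rest, and the sources used here do not say whether reads were counted by strand.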

How the data were processed

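Kidney RNA depleted of ribosomal RNA was sequenced in 9 libraries, per the labels' protocols. The authors deposited 1 value per feature and library, taken to be FPKM because 99.98% of the 17862 features gave whole reads (tolerance 0.0001 read or 2e-07 of the value) from steps in their values. Per the submitters' processing notes, limma was used. Which aligner, counter, build and annotation were used is not given in the sources used. Identifiers are mouse Ensembl, and the labels say rat. The files do not pair identifiers with symbols. Lists of assembly factors, other complexes, regulators and kidney cell markers, written in symbols, matched 0 identifiers and were not used.

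The 12187 features whose mean reached 1 FPKM were fitted as log2(FPKM + 1) in 1 limma model (limma 3.58.1, R 4.3.3) with an intensity trend over all 9 libraries. p-values were two-sided, adjusted by Benjamini-Hochberg over all tested features, with 0.05 as the threshold, and differences understate changes at low levels. Other fits changed the pseudocount (0.1), the filter (none, 5 FPKM), scaling, trend, groups, replicate block, length trends (loess) and left out each library, or used voom on recovered reads. The procedure was tested on simulated data. Within groups, squared differences of counts were 11.1 to 59.1 times those from counting noise (chi-square per degree of freedom). So the libraries of a group differ by more than counting noise, which does not show whether they come from different animals. Rules for naming genes took all called genes, core subunits and the extremes of level and difference. The members and lists were chosen with earlier results of these data known. Counts and medians cover all 35 measured subunits, of which 1 is not reported here by itself.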

Additional observations from a re-analysis of the deposited data

How the results depend on the processing

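In Model against WT, 9 subunits were called, where 732 of the 12187 tested features were called higher. Brackets give that number over all tested features for each other setting. The count was 5 without a filter on low values (528 of 17862) and 5 with the length trend removed (467). It was 3 with the trend of length and level removed (447), 2 with quantile normalization (431), and 0 with only the 2 groups compared (102). It was 11 with a mean of at least 5 FPKM (728 of 6666), 10 with no intensity trend (754) and 9 with a pseudocount of 0.1 (721). Voom gave 7 on total reads (456 of 12184) and 9 with TMM (680 of 12184). On total reads the median difference of the subunits was 0.39, where that of all tested features was -0.05. The count lay between 0 and 9 with 1 library left out (144 to 1013). Replicate numbers do not mark pairs in the labels, and deviations of same-numbered libraries correlated at -0.33 to 0.14. With the replicate block 3 subunits were called (424 of all tested features). The median difference of 0.47 became 0.27 with quantile normalization and 0.26 with the trend of length and level removed. The median in QDG against Model moved from -0.43 to -0.24 and -0.22 under the same settings. All 20 alternatives called 0 subunits there. Over all tested features none of them called more than 1 higher and 2 lower, so the 0 is not particular to the subunits. In each alternative 1 or 2 subunits had a higher estimate in QDG. In QDG against WT 0 were called, where 199 of all tested features were called higher. With 1 library left out the count was 0 to 1 (Ndufs1, without WT 2), where 24 to 416 of all features were called higher. The fit without WT 2 called 145 of all tested features higher. The cause of these shifts was not tested. Recovered reads were at least 1498 in every library for all subunits but Ndufb2, which had 253 to 485. At its low level the added 1 FPKM also counts. Its log2 difference in Model against WT was 0.27, beside a ratio of means of 1.31.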
